A study of Mus musculus with 4 samples.

Results

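The genes described here are those for amino acid and peptide transporters of the solute carrier (Slc) families 1, 3, 6, 7, 15, 36, 38 and 43. They were chosen by symbol alone, as every gene of the table whose name starts with a family name, the letter a and a digit. This gave 69 of 24444 genes, with 20 in family Slc6, 16 in Slc7, 11 in Slc38, 7 in Slc1, 5 each in Slc15 and Slc36, 3 in Slc43 and 2 in Slc3. Of these, 3 (Slc36a1os, Slc6a19os and Slc7a6os) are opposite-strand genes by name and are not carriers, which leaves 66. A few carriers of these families have other substrates, such as Slc6a8 (creatine), Slc6a4 (serotonin) and Slc6a6 (taurine).

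Absorptive cells of the gut take up free amino acids and short peptides through apical carriers of the brush border and release them to the blood through a second set on the basolateral side. Several light chains of family Slc7 reach the membrane only when bound to a heavy chain, Slc3a1 on the apical side and Slc3a2 on the basolateral side and in most dividing cells. Dividing or amino acid-starved cells raise another set, including Slc7a5, Slc7a11 and Slc1a5, in part through the transcription factor ATF4.

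RNA was sequenced from 4 libraries labelled as tumours of CT26, a colon carcinoma line of BALB/c mice, harvested at a volume of about 70 mm3. The knockdown group held 3 libraries labelled as tumours whose cells carried a short hairpin RNA against Ppp2r1a, which encodes the scaffold protein of the phosphatase PP2A. The control group held 1 library from a tumour labelled with a scrambled hairpin. In the sample descriptions the control carries the same number 3 as knockdown 3, and its meaning is not stated. In the study the hairpins were introduced by transfection with puromycin selection, and tumours grew under the skin of BALB/c mice. Neither the age of the mice, whether each tumour came from a separate mouse, nor whether the cells were 1 clone is stated in the labels, so a p-value here reflects the spread among these libraries alone. With a single control library, its own deviation cannot be told apart from an effect of the knockdown. The comparison asks which transporter genes differed with the knockdown label.

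Total expected counts (estimated counts that need not be whole) ranged from 24726440 to 28950004 per library. Ppp2r1a itself was at 40.2, 29.8 and 22.3 TPM (a share of the library corrected for gene length) in knockdown 1, 2 and 3 and at 75.1 TPM in the control. This gave a log2 fold change of -1.62 (standard error, SE, 0.26) and an adjusted p of 0.782 by edgeR, and it was called (an adjusted p under 0.05) by DESeq2 at 0.0244 but in only 1 other of its 10 alternatives (range 0.0244 to 0.808). All 4 libraries carried abundant transcripts of small intestinal epithelium. Other experiments of the study used gut tissue with Ppp2r1a deleted, and which material these libraries hold could not be settled, so groups are named as labelled. The 14 enterocyte markers summed to 36221, 82496 and 133334 TPM in knockdown 1, 2 and 3 and to 121332 TPM in the control. The 7 measured markers of large bowel epithelium, the tissue of origin of the labelled line, summed to 2350, 1250.5, 441 and 601 TPM in the same order, and Car1 among them had no count in the control. Neutrophil markers (7 genes) summed to 1147, 897, 17.5 and 3.30 TPM, with S100a8 and S100a9 without a count in the control. Sums of 8 macrophage markers were 1468, 946, 283 and 288 TPM, and of 5 measured B and plasma cell markers 8596, 2942, 829.7 and 275 TPM. In bulk samples such as these, fewer cells of a type and less RNA per cell cannot be told apart.

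The 69 genes summed to 1567, 2903, 3609.9 and 3412 TPM in knockdown 1, 2 and 3 and the control, between 0.157% and 0.361% of all TPM. Expression was concentrated in a few carriers, and the 10 highest made up 76.0% of the summed level in knockdown 1 and 88.1% in the control. Of the 69, 7 were among the 10 highest in every library, namely Slc6a8, Slc6a19, Slc15a1, Slc3a1, Slc3a2, Slc7a7 and Slc7a9. Between 35 and 39 genes had over 1 TPM in a library and 32 had so in all 4. Enough counts for the test were present for 55 of the 69, and the highest level of the other 14 was 0.21 TPM. They included Slc1a6, Slc1a7, Slc6a13, Slc7a10, Slc15a5, Slc36a3 and Slc38a4, and of the 14 Slc6a5 and Slc7a12 had no count in any library. Knockdown 1 had the lowest level of 25 of the 55 tested genes (45.5%) and the highest of 21 (38.2%). Over all genes tested these shares were 38.1% and 42.6%, so this library held both extremes most often there too.

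**Figure D1:**
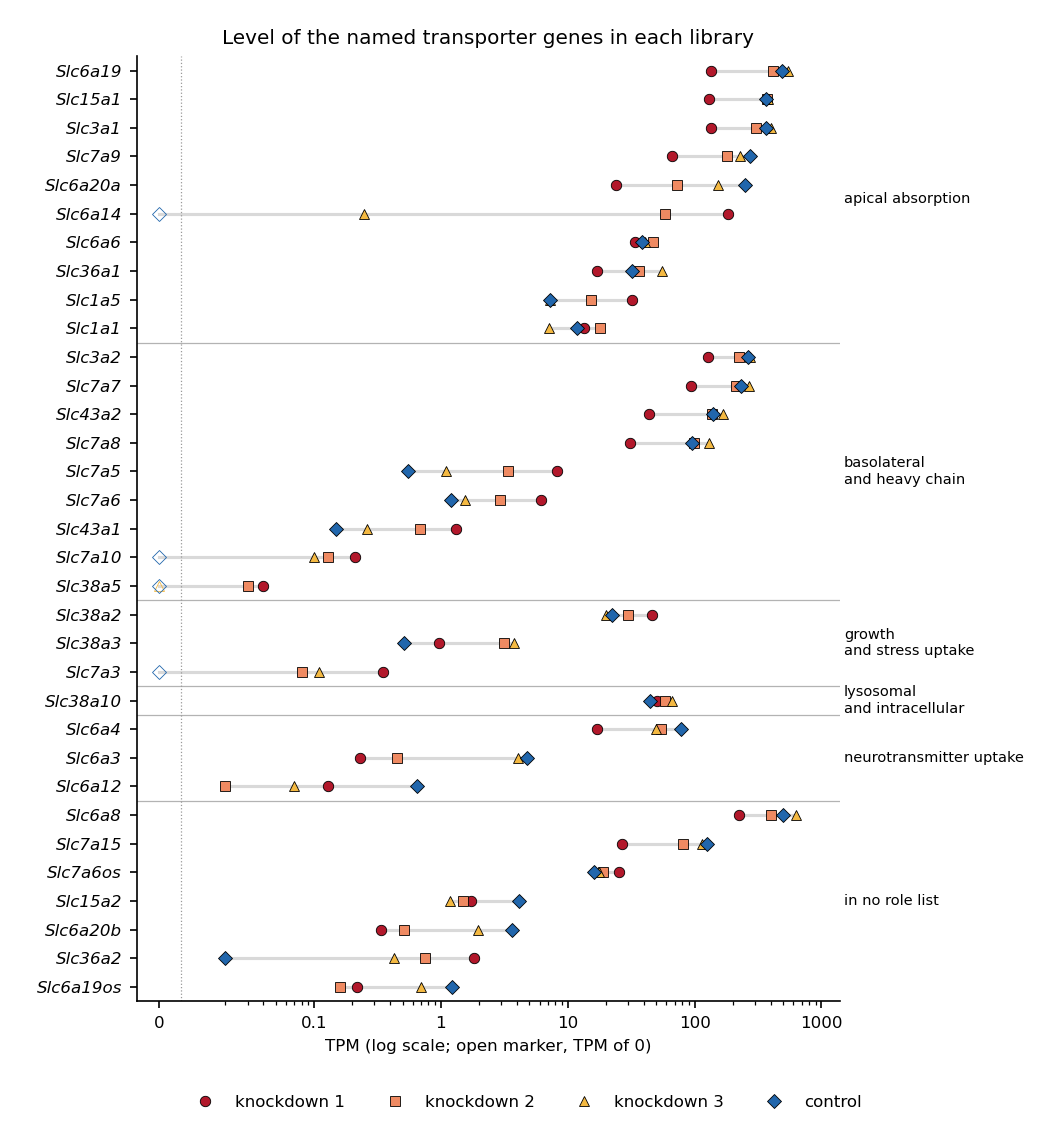
TPM on a log axis of the 33 named transporter genes in the 3 knockdown libraries and the control, grouped by role, with 1 marker per library and a grey line over their range. Slc6a14 ranges from 0 in the control to 183 TPM in knockdown 1, while Slc6a6 stays between 33.65 and 46.6 TPM.

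No transporter gene reached the threshold of the edgeR quasi-likelihood test (adjusted p of 0.05), beside 0% of all 15246 genes tested. The smallest adjusted p of a transporter gene was 0.782. At an unadjusted p under 0.05 edgeR listed 3 of the 55 transporter genes (Slc15a2, Slc36a2 and Slc6a12) and 556 of all genes. DESeq2, another count test, called Slc6a14 higher and Slc15a2 lower and gave no adjusted p to 6 of the 55. Over all genes it called 0.958% higher and 0.21% lower. The limma fits on log2(TPM + 1) and log2(TPM + 0.1) called none. Counted without a test, on counts scaled by TMM factors (trimmed means over genes), 11 of the 55 were higher in every knockdown library than in the control, beside 31.8% of all genes, and 16 were lower in every one, beside 27.7%. This balance turned with the scaling, to 16 higher and 12 lower with library size alone. At 2-fold or more in every library, 3 were higher (Slc6a14, Slc36a2 and Slc7a3), beside 4.73% of all genes, and 2 were lower (Slc6a12 and Slc15a2), beside 2.13%. With no control count, as in Slc6a14 and Slc7a3, any count passes this rule. Against a floor of 3 counts Slc7a3 was below the control in knockdown 2 (log2 ratio -0.25). All 3 higher genes passed the count filter through knockdown libraries alone, Slc7a3 through knockdown 1 only. Slc6a12 passed it through the control alone. In each case this was the side where the gene was high, so these counts are not independent of the filter. The median log2 fold change of the 55 was -0.09, beside 0.06 for all genes. With library size alone in place of TMM factors, the medians were 0.20 and 0.40, a shift of all genes that leaves the transporter median below it.

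Family Slc6 held most of the genes on the low side, with 9 of its 15 tested genes lower in every knockdown library and 2 higher. Over all genes these shares were 27.7% and 31.8%. The 9 include Slc6a19os, which is not a carrier, and Slc6a12, which passed the count filter through the control alone. They also include Slc6a20b, which shares reads with Slc6a20a. On the TPM scale Slc6a17 was above the control in knockdown 1 (0.44 against 0.36 TPM). Slc6a7 was above it in knockdown 2 (0.29 against 0.25 TPM), so these 2 depend on the scaling. In family Slc7, 5 of 13 were higher in every knockdown library and 2 were lower, beside the same 31.8% and 27.7% of all genes. Slc7a3, 1 of the 5, passed the count filter through knockdown 1 alone and had no control count. Against a floor of 3 counts it was below the control in knockdown 2. The median log2 fold changes of these families were -0.82 and 0.58.

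Carriers of apical absorption were the most abundant. All 10 genes of this list were tested, and their summed level was 768, 1515, 1813 and 1835 TPM in knockdown 1, 2 and 3 and the control. None was called by edgeR. In every knockdown library 3 were lower, beside 27.7% of all genes, and 1 was higher (Slc6a14), beside 31.8%. The other 6 lay on both sides of the control. The median log2 ratio over the control was -1.73 in knockdown 1, -0.18 in knockdown 2 and 0.02 in knockdown 3, so the low values were mainly in knockdown 1. The enterocyte markers were lowest in the same library, and their part in the result was not tested.

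Slc6a19, the main apical carrier of neutral amino acids, was at 134, 413 and 543 TPM in knockdown 1, 2 and 3 (363 ± 209 TPM, SD, n = 3), and its control level was 493 TPM. The control lay within the range of the knockdown libraries. Its log2 fold change was -0.63 (SE 0.99, adjusted p = 0.832 by edgeR). Slc6a19 overlaps Slc6a19os on the other strand by 5040 bases in the GRCm38 annotation (chromosome 13), and whether counting used strand is not given in the sources used here, so reads of the overlap cannot be told apart. Slc6a19os was at 0.22, 0.16 and 0.70 TPM against 1.23 TPM.

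Slc15a1, which carries dipeptides and tripeptides into enterocytes, was at 129.5, 371 and 377 TPM, and at 368 TPM in the control. Knockdown 2 and 3 thus matched the control to within a few TPM, and knockdown 1 alone was low. On scaled counts the log2 ratios over the control were -2.06, -0.27 and -0.01, which places all 3 below it. The log2 fold change was -0.54 (SE 0.87, adjusted p = 0.836 by edgeR). Slc3a1, the heavy chain of the apical carrier of cystine and basic amino acids, was likewise lowest in knockdown 1, at 136, 303 and 399 TPM against 364 TPM. Its light chain Slc7a9 was at 66.0, 181 and 229.9 TPM against 271 TPM and was below the control in every knockdown library (log2 fold change -0.96, SE 0.87).

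The promoter of Slc3a1 is shown as that of a brush border gene, with a match to a sequence of the HNF4 type (CAAAGTCCA, searched on both strands) in capitals. HNF4 factors are transcription factors of enterocytes, liver and kidney. The window runs from 250 bases before to 50 bases after the start in RefSeq, here and below on build GRCm38.p6, and the match starts 39 bases before it (chr17:85028097-85028396, plus strand).
Slc3a1: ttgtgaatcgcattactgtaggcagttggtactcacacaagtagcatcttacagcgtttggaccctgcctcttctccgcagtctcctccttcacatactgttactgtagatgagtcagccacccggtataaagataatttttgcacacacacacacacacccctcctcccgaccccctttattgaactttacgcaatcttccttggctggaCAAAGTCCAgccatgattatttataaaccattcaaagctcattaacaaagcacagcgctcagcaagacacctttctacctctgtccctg
Windows of this length were found for 50 transporter genes, and 1 of their 71 windows held this motif, beside 0.475% of all 32851 windows. The motifs were picked after the windows had been read, and a match describes letters only.

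Slc6a20a, an apical carrier of proline and other imino acids, had the lowest log2 fold change of the apical list. It was at 24.1, 72.65 and 153 TPM in knockdown 1, 2 and 3 (83.3 ± 65.1 TPM, SD, n = 3), and its control level was 249.95 TPM, so all knockdown libraries lay below the control. The log2 fold change was -1.74 (SE 1.10, adjusted p = 0.782 by edgeR). Slc6a20b, a close copy that lies beside it on chromosome 9 (123590800 to 123632565 and 123634770 to 123678885, GRCm38), was lower in the same order, at 0.34, 0.51 and 1.97 TPM against 3.65 TPM. Its log2 fold change was -2.10 (SE 1.16). The 2 copies share reads. Their expected counts were fractions that added up to whole numbers in each library, at 692, 2262, 4715 and 8042. Of 50-base windows of the Slc6a20a transcript, 16.2% also occur in that of Slc6a20b, so the level of the rarer copy is uncertain. Relative to Slc6a19, Slc6a20a was at 0.180, 0.176 and 0.282 in the knockdown libraries and at 0.507 in the control, a TPM ratio outside the knockdown range of 0.213 ± 0.060 (SD, n = 3). Without knockdown 3, edgeR called both copies lower, with adjusted p of 0.0279 and 0.00529. Over all 10 alternatives the adjusted p of each ranged from those values to 1.00.

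Slc6a14 gave the largest difference of the set. It encodes a carrier of neutral and basic amino acids with a wide substrate range, known from colon, lung and several cancers, and lies on chromosome X from 21714896 to 21742355 (GRCm38). Its level was 183 TPM in knockdown 1, 58.0 TPM in knockdown 2, 0.25 TPM in knockdown 3 and 0 in the control (9501, 3302, 14 and 0 counts). Among the 69 genes it ranked number 2 in knockdown 1, number 13 in knockdown 2 and number 46 in knockdown 3. The knockdown libraries thus differed from each other by more than knockdown 3 differed from the control. Slc6a14 passed the count filter through knockdown libraries alone, the side where it was high. Against a floor of 3 counts in the control library, the knockdown mean was at least 1115-fold higher. That bound was 465-fold without knockdown 1, 1209.9-fold without knockdown 2 and 1670.3-fold without knockdown 3, and covers counting error only. The adjusted p was 0.782 by edgeR and 0.0336 by DESeq2. Leaving out knockdown 2 or 3 gave calls by edgeR, at 9.09e-11 and 0.000226, while leaving out knockdown 1 gave 0.995, the highest of its 10 alternatives. The large bowel and neutrophil markers were highest in knockdown 1 and 2 as well, and their part in the result was not tested.

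The promoter window of Slc6a14 is shown because this gene had the widest range (chrX:21714650-21714949, plus strand). It holds 1 match to a sequence of the AP-1 type, TGACTCA, read on the opposite strand and starting 82 bases before the start, in capitals.
Slc6a14: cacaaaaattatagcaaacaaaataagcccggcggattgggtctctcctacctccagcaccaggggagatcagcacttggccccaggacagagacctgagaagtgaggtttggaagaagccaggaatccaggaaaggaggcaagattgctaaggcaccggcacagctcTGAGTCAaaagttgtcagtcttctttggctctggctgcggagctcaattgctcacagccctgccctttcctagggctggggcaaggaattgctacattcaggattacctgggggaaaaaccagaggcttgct
Such a match occurs in 5.2% of all windows and in 6 of the 71 windows of transporter genes. The others with it were Slc3a1, Slc6a17, Slc6a19os, Slc6a5 and Slc7a1.

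Of the remaining apical carriers, Slc6a6, the taurine carrier, was at 33.65, 46.6 and 41.0 TPM against 38.5 TPM, so the control lay inside a narrow range. Slc36a1, a proton-coupled carrier of small neutral amino acids, was at 16.9, 36.5 and 55.35 TPM against 32.1 TPM. Slc1a1, a carrier of glutamate and aspartate, was at 13.5, 18.1 and 7.17 TPM against 11.8 TPM. The signs of these 3 log2 fold changes (-0.19, -0.02 and -0.19) turned with library size alone and in the limma fits, so no direction can be given. Slc1a5, a glutamine exchanger of dividing cells, had another pattern. It was at 31.9 TPM in knockdown 1 and 15.2 TPM in knockdown 2, and at 7.30 TPM in knockdown 3 and 7.27 TPM in the control. Its log2 fold change was 0.92 (SE 0.70, adjusted p = 0.782 by edgeR).

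**Figure D2:**
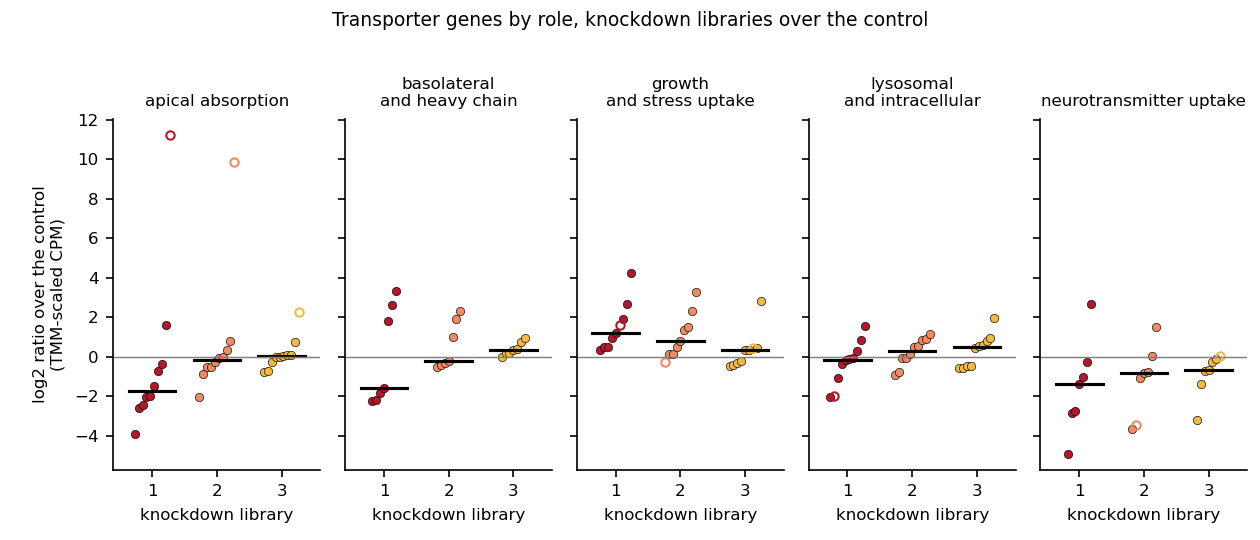
Log2 ratio of each knockdown library over the control for the tested genes of the 5 role lists, on counts scaled to library size with TMM factors, with 1 point per gene and a black line at the median. Open points have fewer than 3 counts on a side, set to 3. Apical genes have medians of -1.73, -0.18 and 0.02, and growth and stress genes of 1.19, 0.79 and 0.33.

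The basolateral list and its heavy chain held 9 genes, 7 of them tested and none called by edgeR. Their summed level was 314, 679, 839 and 735 TPM, with knockdown 1 lowest. Here the list divided into abundant carriers that were low in knockdown 1 and rare ones that were high there. Slc3a2, the heavy chain, was at 129, 224 and 271 TPM in knockdown 1, 2 and 3 (208 ± 72.7 TPM, SD, n = 3) and 263 TPM in the control. Slc7a7, which with it exports basic amino acids, was at 94.1, 212 and 269 TPM against 234 TPM. Slc43a2, a carrier of large neutral amino acids, was at 44.1, 137 and 166 TPM against 141 TPM. Slc7a8, its counterpart that binds the heavy chain, was at 31.0, 98.3 and 129.8 TPM against 95.9 TPM. In these 4 genes knockdown 3 was above the control and knockdown 1 below it, and the log2 fold changes ran from -0.56 to -0.34 with adjusted p from 0.797 to 0.906 by edgeR.

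Slc7a5, the light chain of dividing cells that imports leucine and other large neutral amino acids, was higher in every knockdown library. It was at 8.17, 3.36 and 1.10 TPM in knockdown 1, 2 and 3 (4.21 ± 3.61 TPM, SD, n = 3), and its control level was 0.55 TPM. The log2 fold change was 2.50 (SE 1.13, adjusted p = 0.782 by edgeR), and without knockdown 3 it was called with an adjusted p of 0.0179 (range over 10 alternatives 0.0179 to 0.995). Slc7a6, the light chain that resembles Slc7a7 but is expressed more widely, was at 6.11, 2.92 and 1.55 TPM against 1.20 TPM, and Slc43a1 at 1.31, 0.68 and 0.26 TPM against 0.15 TPM. All 3 genes were above the control in each knockdown library and highest in knockdown 1. Slc7a10 (6, 4, 3 and 0 counts) and Slc38a5 (1, 1, 0 and 0 counts) were too low to test.

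Carriers of growth and stress uptake, which supply dividing or starved cells, were the role list with the most genes higher in every knockdown library. Of its 10 genes 9 were tested and none was called by edgeR. Of the 9, 5 were higher in every knockdown library, beside 31.8% of all genes, and none was lower in every one, beside 27.7%. Slc7a3, 1 of the 5, had no control count and passed the count filter through knockdown 1 alone. It was below the control in knockdown 2 against a floor of 3 counts. The median log2 ratio was 1.19, 0.79 and 0.33 in knockdown 1, 2 and 3, beside 0.07, 0.04 and 0.01 over all genes. The summed level was 87.6, 56.0 and 35.2 TPM, and 33.9 TPM in the control. Knockdown 3 and the control were thus close, and the macrophage, neutrophil and plasma cell markers were also highest in knockdown 1 and 2. Their part in the result was not tested.

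Slc7a11, the cystine and glutamate exchanger, showed the widest range of this list. It was at 5.35, 2.26 and 0.15 TPM in knockdown 1, 2 and 3 and at 0.20 TPM in the control (758, 352, 23.1 and 31 counts). Knockdown 3 was below the control, and the other knockdown libraries were far above it. The log2 fold change was 3.27 (SE 1.95, adjusted p = 0.782 by edgeR), and the call without knockdown 3 had an adjusted p of 0.00316 (range over 10 alternatives 0.00316 to 0.995). Slc1a4, a carrier of alanine, serine and cysteine, was at 8.47, 2.74 and 1.17 TPM against 0.90 TPM (log2 fold change 1.76, SE 1.09). Slc6a9, a glycine carrier, was at 7.17, 4.57 and 1.71 TPM against 1.32 TPM. Slc7a1, the common carrier of basic amino acids, was at 8.08, 6.11 and 4.11 TPM against 2.92 TPM. Slc38a2, a glutamine carrier that responds to amino acid lack, was the most abundant of the list, at 46.0, 29.8 and 20.01 TPM against 22.5 TPM (log2 fold change 0.16, SE 0.38).

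Slc38a3, a glutamine carrier known from liver, kidney and brain, ran the other way among the knockdown libraries. It was lowest in knockdown 1 and highest in knockdown 3, at 0.96, 3.14 and 3.79 TPM against 0.51 TPM (log2 fold change 2.16, SE 1.18, adjusted p = 0.782 by edgeR). Slc7a3, a carrier of basic amino acids, had 12, 3 and 4 counts against none in the control, at least 1.75-fold higher than a floor of 3 counts and 1.09-fold without knockdown 1.

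The promoters of Slc7a11 and Slc1a4 are shown because both genes were highest in knockdown 1 and hold a core of the amino acid response element, TGATGCAA, the site type bound by ATF4, in capitals. Slc7a11 (chr3:50443564-50443863, minus strand) has 2 matches, the first on its own strand from 66 bases before the start and the second on the opposite strand from 47 bases before it.
Slc7a11: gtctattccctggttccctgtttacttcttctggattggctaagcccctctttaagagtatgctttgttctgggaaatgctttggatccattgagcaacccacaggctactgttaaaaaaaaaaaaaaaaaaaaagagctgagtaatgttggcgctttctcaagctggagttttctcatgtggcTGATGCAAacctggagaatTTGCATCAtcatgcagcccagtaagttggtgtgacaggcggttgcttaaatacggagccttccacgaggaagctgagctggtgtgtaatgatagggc
In Slc1a4 (chr11:20332664-20332963, minus strand) the single match is on the opposite strand from 4 bases before the start.
Slc1a4: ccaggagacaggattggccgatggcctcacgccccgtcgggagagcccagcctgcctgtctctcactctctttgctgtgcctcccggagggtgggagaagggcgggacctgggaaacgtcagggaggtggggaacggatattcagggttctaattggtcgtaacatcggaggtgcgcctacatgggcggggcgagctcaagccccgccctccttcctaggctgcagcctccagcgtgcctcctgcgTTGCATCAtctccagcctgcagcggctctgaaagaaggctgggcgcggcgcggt
The motif occurs in 0.895% of all windows and in 4 of the 71 windows of transporter genes. The third gene with it was Slc7a7, which was lowest in knockdown 1, so these letters did not go with a single pattern of levels.

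Among peptide carriers, Slc15a2 was the gene with the most even difference. It encodes a high-affinity peptide carrier known from kidney and lies on chromosome 16 from 36750177 to 36784962 (GRCm38). Its level was 1.73, 1.49 and 1.18 TPM in knockdown 1, 2 and 3 (1.47 ± 0.28 TPM, SD, n = 3) and 4.14 TPM in the control (105, 96, 77 and 275 counts). On scaled counts its log2 ratios over the control were -1.78, -1.77 and -1.82, so the knockdown libraries differed from each other far less than from the control. On the TPM scale they were less even, falling from knockdown 1 to knockdown 3, and all lay below the control. The log2 fold change was -1.79 (SE 0.34, unadjusted p = 0.00443 by edgeR), but the adjusted p was 0.782. DESeq2 called it with an adjusted p of 0.0499 and edgeR without knockdown 3 with 0.0405. Over the 10 alternatives the adjusted p ranged from 0.0405 to 1.00. Slc15a3 and Slc15a4, which carry histidine and peptides out of lysosomes of immune cells, shared a pattern. Slc15a3 was at 9.54, 6.11 and 1.57 TPM against 2.25 TPM and Slc15a4 at 8.03, 5.20 and 3.11 TPM against 4.53 TPM. On the TPM scale knockdown 1 and 2 were above the control and knockdown 3 below it in both, but on scaled counts Slc15a4 in knockdown 2 was also below it (log2 ratio -0.08). Knockdown 1, 2 and 3 had the same order as the macrophage markers, whose part was not tested.

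The lysosomal and intracellular list of 10 genes, all tested, had the median log2 fold change nearest 0 of the 5 role lists, at 0.12. In every knockdown library 1 gene was higher and 1 lower, beside 31.8% and 27.7% of all genes, and none was called by edgeR. The summed level of the list was 84.4, 87.65, 91.3 and 64.5 TPM. Slc38a10, an intracellular member of the glutamine carrier family, made up most of it, at 50.7, 58.6 and 66.9 TPM against 44.6 TPM. On the TPM scale all knockdown libraries were above the control, but on scaled counts the log2 ratio of knockdown 1 was -0.36, so the direction depends on the scaling. Slc38a7, which exports glutamine from lysosomes, was at 6.68, 6.0 and 7.2 TPM against 5.17 TPM. Slc38a9, the lysosomal arginine sensor upstream of mTORC1, was at 1.12, 1.03 and 1.18 TPM against 1.6 TPM. Its knockdown libraries lay close together on the TPM scale, while on scaled counts the log2 ratios were -1.08, -0.93 and -0.49. The log2 fold change was -0.81 (SE 0.39, adjusted p = 0.782 by edgeR).

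Carriers of neurotransmitters were mostly rare, with 7 of 13 genes tested and none called by edgeR. Of the 7, 5 were lower in every knockdown library, beside 27.7% of all genes, and none was higher in every one, beside 31.8%. Slc6a17, 1 of the 5, was above the control in knockdown 1 on the TPM scale (0.44 against 0.36 TPM). The exception in level was Slc6a4, the serotonin carrier, which enterocytes also express. It was at 17.0, 54.7 and 49.4 TPM in knockdown 1, 2 and 3 (40.4 ± 20.4 TPM, SD, n = 3) against 77.9 TPM (log2 fold change -1.16, SE 0.81, adjusted p = 0.782 by edgeR). Slc6a3, the dopamine carrier, was nearly as high in knockdown 3 as in the control, at 0.23, 0.45 and 4.07 TPM against 4.75 TPM (12, 26, 229 and 278 counts). The call without knockdown 3 had an adjusted p of 0.00227, over a range of 0.00227 to 1.00 in the 10 alternatives. Slc6a3 lies on chromosome 13 near Slc6a18 and Slc6a19. Slc6a12, a carrier of betaine and GABA, had 5, 1 and 3 counts against 28 (log2 fold change -3.39, SE 0.87) and an unadjusted p of 0.0142 by edgeR, which did not hold after adjustment. It passed the count filter through the control alone, so its place among the 5 and its p are not independent of the filter.

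Genes outside these lists included the most abundant of all. Slc6a8, the creatine carrier, was at 223, 398 and 631 TPM in knockdown 1, 2 and 3 (417 ± 205 TPM, SD, n = 3), and its control level was 498 TPM (log2 fold change -0.45, SE 0.90, adjusted p = 0.862 by edgeR). Slc7a15 was at 26.6, 81.2 and 115 TPM against 126 TPM, low mainly in knockdown 1. Slc36a2, a proton-coupled carrier of small amino acids, had 67, 30 and 17 counts against 1 in the control. It passed the count filter through knockdown libraries alone, so its p-values below are not independent of the filter. The ratio of its scaled counts was 32.7, with an exact 95% binomial interval from 5.74 to 1301 that covers counting error only, and its unadjusted p by edgeR was 0.0173. Without knockdown 3 it was called with an adjusted p of 0.0312 (range over 10 alternatives 0.0312 to 0.995). Its neighbour Slc36a1 on chromosome 11 did not share this difference. Slc7a6os was at 25.3, 19.0 and 17.7 TPM against 16.1 TPM, with log2 ratios between -0.03 and 0.10.

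Carriers and their partners were then compared within each library, for pairs picked after their values had been seen. The TPM ratio of Slc15a1 to the enterocyte gene Fabp2 was 0.0158, 0.0162 and 0.0188 in knockdown 1, 2 and 3 and 0.0163 in the control, within 1.19-fold, while Slc15a1 itself ranged over 2.91-fold. Fabp2 gave the narrowest ratio of the 14 enterocyte markers. Over all 14 the ratio ranged over a median of 1.84-fold, from 1.19-fold to 3.71-fold for Lgals4, and it was narrower than the range of Slc15a1 itself for 11 of them. Slc7a9 relative to its heavy chain Slc3a1 was 0.486, 0.597 and 0.576 against 0.746, lower in every knockdown library. For the heavy chain Slc3a2, the ratio of Slc7a7 was 0.731, 0.944 and 0.992 against 0.889, whereas that of Slc7a5 was 0.0635, 0.0150 and 0.00405 against 0.00209. Slc7a5 thus stayed a small share of the light chains in all libraries, while its ratio ranged over 30.4-fold. The ratio of Slc7a11 ranged over 75.2-fold.

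**Figure D3:**
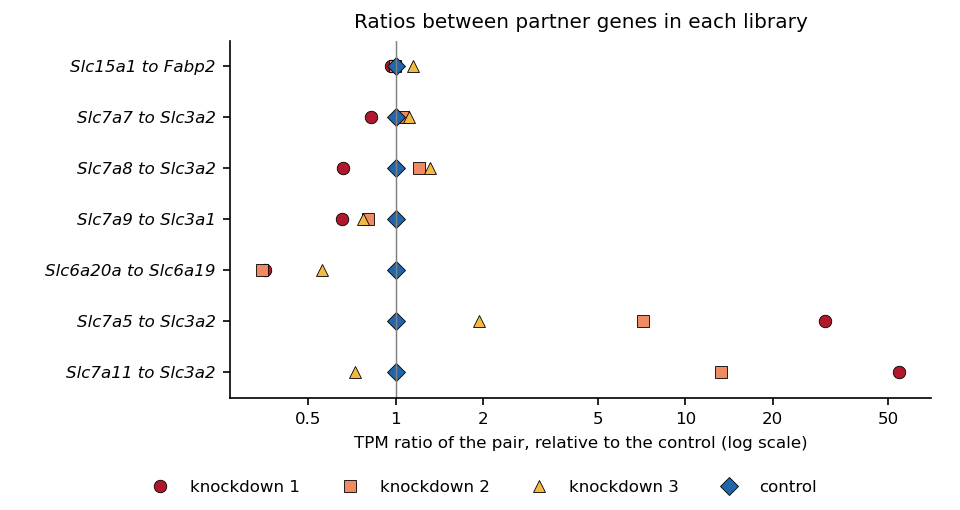
TPM ratio of 7 gene pairs in each library, divided by the ratio in the control, on a log axis, with 1 marker per library. Slc15a1 to Fabp2 stays within 1.19-fold, while Slc7a5 to Slc3a2 and Slc7a11 to Slc3a2 spread over 30.4-fold and 75.2-fold.

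Related gene lists gave the surroundings of these carriers. No gene of the 4 lists below was called by edgeR with all libraries. Without knockdown 3, edgeR called Tmprss15 lower and Arg1 and Ass1 higher, besides genes of the ATF4 list given below. Of 11 tested brush border peptidases, which cut peptides to the forms that these carriers take up, 5 were lower and 1 was higher in every knockdown library, beside 27.7% and 31.8% of all genes. Their summed level was 2447, 6934, 8826 and 7779.9 TPM, lowest in knockdown 1 like that of the enterocyte markers. Anpep, at 964, 2949 and 3810 TPM against 2462 TPM, is in both lists, so these sums are not independent. The largest differences were in Tmprss15, the activator of trypsinogen, at 0, 0.01 and 47.5 TPM against 98.2 TPM, and in Mep1a and Ace, with log2 fold changes of -1.22 (SE 0.61) and -1.11 (SE 1.06). Of 8 tested amino acid carriers outside the chosen families, 5 were lower and none higher in every knockdown library, among them Slc16a10 (aromatic amino acids, -1.07, SE 0.93) and Slc25a15 (mitochondrial ornithine, -1.04, SE 0.85). The rare vesicular glutamate carrier Slc17a8 stood at 3 control counts, and its ratio was 2.67 (exact 95% interval from 0.826 to 13.7).

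Of 19 tested genes of the ATF4 amino acid response, 12 were higher and 4 lower in every knockdown library, beside 31.8% and 27.7% of all genes, 2 of them higher by 2-fold or more throughout. The median log2 fold change was 0.97. The largest differences were in Pycr1 (proline synthesis) at 2.58, 1.35 and 0.47 TPM against 0.18 TPM, in Psat1 (serine synthesis) at 17.7, 9.85 and 4.49 TPM against 2.13 TPM and in Phgdh (serine synthesis) at 27.4, 12.7 and 6.86 TPM against 3.46 TPM. Other genes of these routes differed less or the other way, with log2 fold changes of 0.27 (SE 0.35) for Psph and -0.56 (SE 0.56) for Aldh18a1. All 3 had the order of Slc7a5 and Slc1a4, highest in knockdown 1 and lowest in the control. Atf4 itself was lower in each knockdown library, at 292, 259.6 and 293 TPM against 373 TPM, as were its targets Ddit3 and Trib3, so the list did not differ in 1 direction. Without knockdown 3, edgeR called 3 of these genes higher and 2 lower, beside 4.95% and 2.38% of all genes. Of 19 tested genes of amino acid metabolism, 11 were lower and 1 was higher in every knockdown library. The higher one was Ass1, the argininosuccinate synthase, at 5.70, 1.49 and 1.51 TPM against 0, at least 19.5-fold higher than a floor of 3 counts, and 12.0-fold without knockdown 1. DESeq2 called it. Arg1, an arginase known from liver and the myeloid lineage, had 21.7, 22.9 and 0.82 TPM and a control level of 1.33 TPM. Arg2, the mitochondrial form, was at 179, 493.5 and 721 TPM against 1124 TPM.

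**Figure D4:**
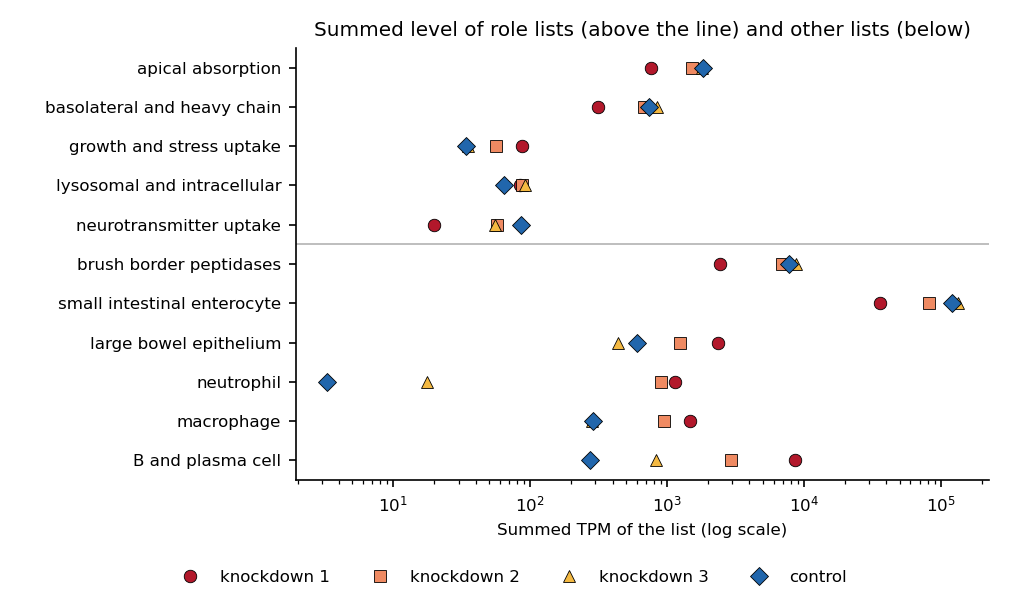
Summed TPM on a log axis of the 5 transporter role lists, above the line, and of brush border peptidases and 5 cell type marker lists, below it, with 1 marker per library. Apical carriers sum to 768 TPM in knockdown 1 and 1835 TPM in the control, and neutrophil markers to 1147 TPM and 3.30 TPM.

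Leaving out knockdown 3 changed the calls most. Then 8 of the 55 transporter genes passed by edgeR. Slc6a14, Slc36a2, Slc7a11 and Slc7a5 were higher, beside 4.95% of all genes, and Slc15a2, Slc6a20a, Slc6a20b and Slc6a3 were lower, beside 2.38%. Without knockdown 2 only Slc6a14 passed, beside 1.07% of all genes, and without knockdown 1 none did. In knockdown 3 many of these genes lay near the control, as the values above show for Slc6a14, Slc7a11 and Slc6a3. Whether the number shared by knockdown 3 and the control has a part in this was not tested. On scaled counts Slc15a2 was the one of the 8 whose ratio was alike in all 3 knockdown libraries, and it was less even on the TPM scale.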

How the data were processed

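RNA sequencing of 4 mouse libraries was analysed from a single gene table that the authors deposited. The authors made the deposited expected counts as estimates of the reads of each gene, which need not be whole (5.3% to 5.89% of values were not). The deposited TPM were made by the authors by scaling these to gene length and to the library total. The deposited FPKM, which the authors scaled by gene length and depth, were not used, nor were the columns of fold and posterior probability of equal expression. Bowtie 0.12.2, mm8 and mm10 appear in the submitters' processing notes with no role, while the tool that counted reads and its annotation were not given in the sources used here. Positions come from GENCODE (GRCm38) and promoters from RefSeq, matched by symbol.

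Expected counts were rounded and tested on all genes with edgeR 4.0.16 in R 4.3.3 (quasi-likelihood F-test, two-sided, TMM factors from 0.844 to 1.30, filterByExpr with a minimum count of 10, Benjamini-Hochberg adjustment over 15246 genes, threshold 0.05). All 2 residual degrees of freedom stem from the knockdown group. The smallest p of an exact permutation test of 1 library against 3 is 0.25. The SE of a log2 fold change was taken from its F statistic. Alternatives were RLE factors, library size alone, no filter, a filter of 50 counts, DESeq2 1.42.0, limma 3.58.1 on log2(TPM + 1) and log2(TPM + 0.1), and each knockdown library left out. Scripts were tested on simulated data. Members and lists were chosen with earlier results of these data known. Named genes were those with a mean of 10 TPM or more, the 6 largest rises and 6 largest falls with all knockdown libraries on 1 side, the apical and basolateral lists, and the 3 genes of largest change per related list. Others are named where a sentence on a list needs them. Results for some genes that these rules would name are not reported here.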

Additional observations from a re-analysis of the deposited data

How the results depend on the processing

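The number of all genes called was 0 by edgeR with all libraries, 178 by DESeq2 and from 0 to 1111 with a knockdown library left out. For transporter genes it was 0, 2 by DESeq2 and from 0 to 8 with a library left out. Counts of transporter genes higher and lower in every knockdown library were 11 and 16, and ranged from 12 to 20 and from 18 to 27 with a library left out, where fewer libraries have to lie on 1 side. They were 16 and 12 with library size alone and 16 and 13 on both TPM scales, so the balance turned. At 2-fold these counts were 3 and 2, from 3 to 12 and from 3 to 7 with a library left out, and 1 gene was 2-fold lower with a filter of 50 counts, which removes Slc6a12. The median log2 fold change was -0.09, from -0.13 to -0.04 with a library left out, and 0.20 with library size alone.

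Among the named genes, the sign of the log2 fold change turned in 6, whose values with all libraries lay between -0.34 and 0.16. With library size alone it became 0.10 for Slc6a6, 0.20 for Slc36a1 and 0.17 for Slc1a1. On log2(TPM + 1) it was 0.057 for Slc6a6, 0.020 for Slc36a1 and 0.037 for Slc1a1, and on log2(TPM + 0.1) 0.058, 0.015 and 0.032. With a knockdown library left out it ranged from -0.33 to 0.017 for Slc6a6, from -0.63 to 0.38 for Slc36a1, from -0.55 to 0.030 for Slc1a1, from -0.91 to 0.10 for Slc7a8, from -0.10 to 0.34 for Slc38a10 and from -0.039 to 0.31 for Slc38a2. Of the values of single genes under the alternatives, 279 kept their sign and their side of the threshold, 16 turned and 10 passed the threshold although not called with all libraries. No paired analysis was possible because the control group has a single library.

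With a single control, no spread of the control could be measured, and the test assumes that it varied like the knockdown libraries. Genes under about 10 counts, 14 of the 69, could not be tested, and a count of 0 in the control gives a bound only.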
